A study of Mus musculus with 6 samples.

Results

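ATP-binding cassette (ABC) transporters are membrane pumps that spend ATP to move drugs, peptides, lipids and conjugated metabolites across membranes. The 10 genes described here encode pumps of drug and lipid efflux, and all 10 were found, by the symbol that GENCODE M21 gives to each Ensembl identifier, among the 14864 genes of the deposited table of sorted splenic marginal zone B cells. They were selected on a measured value, the lower level of Abcb1b in the knockout libraries, so its difference between the groups is given below as a description, with no test. The genes are the drug pumps Abcb1a and Abcb1b and their neighbour Abcb4, the conjugate pumps Abcc1, Abcc4 and Abcc5, and the lipid pumps Abca1, Abca2, Abca7 and Abcg1.

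RNA came from C57BL/6 mice aged 8 weeks, and was sequenced in 3 libraries labelled wild type (WT) and 3 labelled as a conditional knockout of CK2α (cKO). CK2α is the catalytic subunit of the kinase CK2 and is encoded by Csnk2a1. The sources used here do not give the Cre driver, the deleted exons or how the cells were gated. Nor do the labels tie each library to its own mouse, so a p-value here measures how far single libraries vary, and that variation may be technical.

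ABC pumps are built from membrane-spanning domains that form the path of the substrate and nucleotide-binding domains that bind and split ATP. P-glycoprotein, the classical multidrug pump of lymphocytes and barrier tissues, is made from 1 gene in humans and from the pair Abcb1a and Abcb1b in mice. Abca1 and Abcg1 hand cholesterol and phospholipid to lipoproteins, and both are textbook targets of the liver X receptors (LXR), nuclear receptors that sense oxidised sterols.

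In GENCODE M21 the genes Abcb1a, Abcb1b and Abcb4 lie next to each other on chromosome 5, on the same strand. The coding sequences of Abcb1a and Abcb1b, each 3831 bases long, were identical at 3370 of 3819 aligned bases (88.24%). Abcb4, whose product moves phosphatidylcholine into bile in the liver, was identical to Abcb1a at 77.02% and to Abcb1b at 75.59% of aligned coding bases. How well reads can tell the pair apart varies along the message, and the sequences below show the extremes. The longest identical stretch is 338 bases, at bases 1357 to 1694 of the Abcb1a coding sequence and 1366 to 1703 of that of Abcb1b, and a read from inside it could come from either gene. Its first 120 bases are shown.

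Abcb1a and Abcb1b, shared: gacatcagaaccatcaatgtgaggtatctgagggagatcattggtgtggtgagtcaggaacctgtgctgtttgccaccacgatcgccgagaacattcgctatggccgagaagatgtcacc

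The least alike window of 60 bases without a gap holds 25 differences, shown in capitals, and starts at coding base 1913 of Abcb1a and 1922 of Abcb1b.

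Abcb1a: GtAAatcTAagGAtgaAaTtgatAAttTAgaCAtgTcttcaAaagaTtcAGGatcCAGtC

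Abcb1b: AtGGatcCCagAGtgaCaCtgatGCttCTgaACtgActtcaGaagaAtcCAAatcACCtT

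Over the longest protein-coding transcripts, 18.0% of the 50-base windows of Abcb1b also occurred in Abcb1a, and 8.72% of its 100-base windows. How the authors counted reads that fit both genes, and the read length, could not be learned from the sources used here. The level of each gene of the pair is therefore uncertain by the reads that such windows hold.

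The RefSeq start regions of the pair, of which that of Abcb1a lies far from its GENCODE gene start, are unlike each other. RefSeq promoters, taken from 250 bases before to 50 after the start site in build GRCm38.p6, were found for 8 of the 10 genes, all but Abcc1 and Abcg1. Those of Abcb1b and Abcb1a are shown because these genes differ in opposite directions below, and that of Abca1 because it is a known LXR target. Capitals mark matches, on either strand, to CCAAT (the CCAAT box), GGGCGG (the GC box) and TATAAA (the TATA box), which do not overlap each other.

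Abcb1b, chr5:8797897-8798196, plus strand: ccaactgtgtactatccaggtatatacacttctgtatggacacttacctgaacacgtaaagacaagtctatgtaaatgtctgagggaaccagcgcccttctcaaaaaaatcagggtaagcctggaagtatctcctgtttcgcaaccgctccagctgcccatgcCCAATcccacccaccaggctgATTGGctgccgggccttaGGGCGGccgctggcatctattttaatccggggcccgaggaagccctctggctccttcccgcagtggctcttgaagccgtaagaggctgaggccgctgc

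Abcb1a, chr5:8566841-8567140, plus strand: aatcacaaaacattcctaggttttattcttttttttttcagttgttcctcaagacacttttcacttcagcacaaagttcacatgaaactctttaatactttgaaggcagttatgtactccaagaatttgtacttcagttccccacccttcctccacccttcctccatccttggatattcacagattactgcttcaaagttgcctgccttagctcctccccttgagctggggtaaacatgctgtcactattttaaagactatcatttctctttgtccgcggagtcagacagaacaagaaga

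Abca1, chr4:53159846-53160145, minus strand: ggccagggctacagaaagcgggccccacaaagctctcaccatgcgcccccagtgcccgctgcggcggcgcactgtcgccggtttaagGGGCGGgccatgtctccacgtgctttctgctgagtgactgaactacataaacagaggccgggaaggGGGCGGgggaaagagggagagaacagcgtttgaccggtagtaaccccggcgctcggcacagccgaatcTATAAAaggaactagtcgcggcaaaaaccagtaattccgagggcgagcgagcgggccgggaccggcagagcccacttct

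In the Abcb1b window CCAAT matches begin 87 and 66 bases before the start site and a GC box 48 bases before it, and 55.0% of its bases are G or C. The Abcb1a window holds 0 matches to the 3 patterns and is 40.3% G or C. It surrounds a start site that lies 92986 bases before the gene start in GENCODE M21, so another promoter of Abcb1a was not analysed here. The Abca1 window holds GC boxes 163 and 97 bases before the start and a TATA box 29 bases before it. Of all 32851 RefSeq promoters, 37.4% hold CCAAT, 35.7% GGGCGG and 13.6% TATAAA. A match describes letters and does not show that a factor binds there.

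The libraries held 18778776 to 23503756 recovered reads each. Csnk2a1, the targeted gene, had 3957 ± 105 normalised reads in the WT and 4045 ± 87.6 in the cKO libraries (SD, n = 3). Its gene-level count therefore did not check the labels, and WT and cKO below mean libraries labelled so. All 7 B cell genes of a fixed list were measured, with sums of 176274 to 187720 reads in WT and 180376 to 183777 in cKO. Blood and macrophage genes were uneven. The summed level of 7 erythroid genes was 682 to 11103 reads in WT and 821 to 5023 in cKO, highest in WT replicate 2 and cKO replicate 1. The same libraries led in the sum of 11 macrophage genes, at 3264 and 3091 against 1619 to 2007 in the other 4. Of 9 T cell markers 4 were measured, and the receptor chain genes Cd3d, Cd3e and Cd3g were not analysed here. The 4 summed to 634 to 727 reads in WT and to 331 to 487 in cKO, without overlap. Most of that sum was Lck (592 to 686 in WT, 298 to 441 in cKO). The low genes Cd4 (means of 23.0 in WT and 13.3 in cKO) and Cd8a (18.2 and 7.86) were also lower in every cKO library. Il7r was higher in cKO on average (10.1 and 19.0), with overlapping groups. These genes were named after their values were seen. The 13 marginal zone markers summed to 151900 to 164633 in WT and 156153 to 188554 in cKO. Of these 13 markers 6 rose in cKO, and of 7 follicular B cell markers 3 fell, Klf2 and Ccr7 among them, by the test described next. The part of these differences in the results below was not tested. Of the 14855 genes tested 10.1% passed the threshold, with 5.08% higher and 4.97% lower in cKO, and the groups did not overlap for 31.6% (cKO higher for 15.9%, lower for 15.6%). The test was limma on log2(value + 1), with an adjusted p under 0.05 over all genes tested. At an unadjusted p under 0.05 in this test, 2007 of the 14855 genes were higher and 1976 lower in cKO.

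Abcb1b and Abcb1a differed between the groups in opposite directions. Abcb1b (ENSMUSG00000028970) stood at 309, 291 and 317 normalised reads in WT replicates 1, 2 and 3 and at 137, 85.3 and 117 in cKO replicates 1, 2 and 3. Each cKO library lay below each WT library. The means were 305 ± 13.3 and 113 ± 26.2 (SD, n = 3 each), a log2 difference of -1.45 ± 0.16 (SE), or 0.366 times the WT level on that scale. Without the library that was highest among the cKO, replicate 1, the log2 difference was -1.60.

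Abcb1a (ENSMUSG00000040584) stood at 703, 658 and 649 normalised reads in the WT libraries and at 1351, 779.9 and 953 in the cKO libraries. The groups did not overlap, but the cKO libraries were spread widely, with replicate 1 far above the others. It rose by 0.58 ± 0.15 on the log2 scale (limma, adjusted p = 0.0393), from 670 ± 29.0 to 1028 ± 293. The call was lost with DESeq2 (adjusted p = 0.0694), without any 1 of the WT libraries (0.103, 0.0887 and 0.12 without replicates 1, 2 and 3) and without cKO replicate 3 (0.0883), and when WT replicate 2 and cKO replicate 1 were both left out (0.0857), in a range of 0.00316 to 0.12 over all alternatives. Without cKO replicate 1 the log2 difference was 0.37, and without both libraries 0.35. Fcer2a, a follicular B cell marker named after its values were seen, was highest where Abcb1a was lowest among the cKO libraries, at 7644 reads in replicate 2 against 3120.0 and 3723 in replicates 1 and 3. Its part in the result was not tested.

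**Figure D1:**
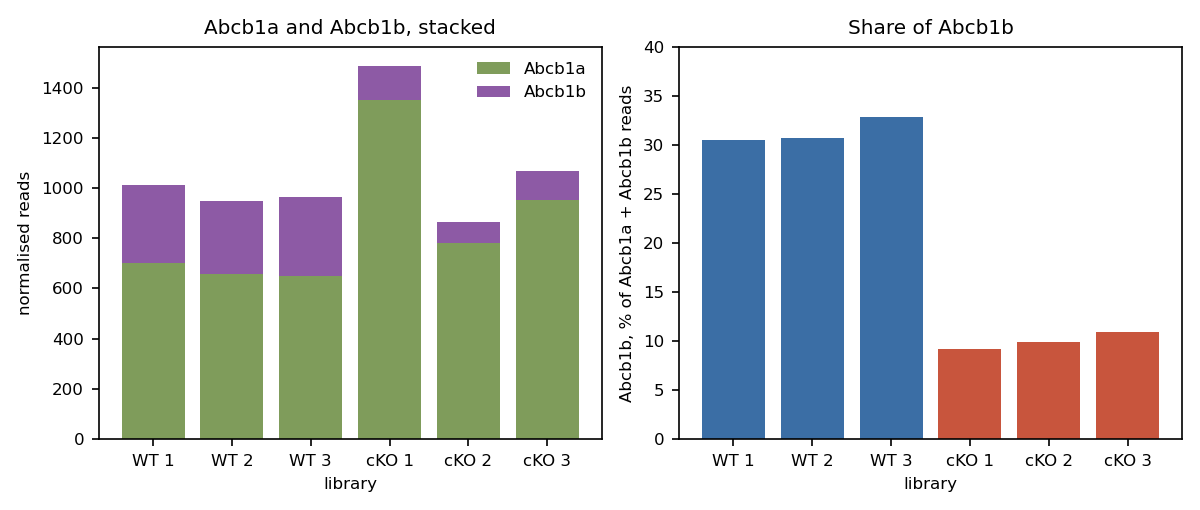
Left, stacked normalised reads of Abcb1a and Abcb1b in each library; right, the reads of Abcb1b as a percentage of both. The sum varies from 865 to 1488 in cKO, while the Abcb1b share lies between 30.5% and 32.8% in WT and between 9.23% and 10.9% in cKO.

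Taken as a pair, the genes differed between the groups in the share of the reads that each held. Abcb1b held 30.5%, 30.7% and 32.8% of the pair's reads in the WT libraries and 9.23%, 9.86% and 10.9% in the cKO libraries. The share hardly varied within a group, whereas the sum did in cKO. That sum was 1011, 949 and 965 reads in WT and 1488, 865 and 1070.1 in cKO, so that the groups overlapped. Scaled by the longest transcript, 4.997 kb for Abcb1a and 4.306 kb for Abcb1b, the Abcb1b share was 34.6% ± 1.36 in WT but 11.4% ± 0.948 in cKO (SD, n = 3 each). Since the share contains the difference for which Abcb1b was chosen, no test is given. The plot of stacked reads shows both quantities.

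Abcb4 (ENSMUSG00000042476) stood at 145, 134 and 197 normalised reads in WT and at 113, 112 and 126 in cKO. Each cKO library was below each WT library, with WT replicate 3 set apart at the top. The log2 difference of -0.42 ± 0.16, with a 95% interval of -0.78 to -0.05, did not pass (limma, adjusted p = 0.135). Without WT replicate 3 it was -0.25 (adjusted p = 0.390).

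The protein-coding neighbours of the cluster did not pass the test. Before it lie Rundc3b, Slc25a40 and Dbf4 and after it Crot, Tmem243 and Dmtf1, and 0 of these 6 passed (limma adjusted p between 0.297 and 0.969; 0 at an unadjusted p under 0.05, 0 with edgeR and 0 with DESeq2). For comparison, 10.1% of all 14855 genes tested passed in limma, and 3983 had an unadjusted p under 0.05. Rundc3b, the nearest before Abcb1a, stood at 209, 197 and 199 reads in WT and 229.99, 122 and 155 in cKO, so the groups overlapped. Its log2 difference of -0.30 was -0.55 without cKO replicate 1 and -0.093 without cKO replicate 2. Crot, the peroxisomal carnitine octanoyltransferase gene that follows Abcb4, gave -0.08 ± 0.08. A noncoding transcript of the opposite strand, Gm42686, overlaps an exon of Abcb1a and was counted at 23.2 to 30.7 reads in WT and 31.3 to 43.3 in cKO. Without a stated strand setting its reads cannot be told apart from those of Abcb1a, but they were few beside them. Gm5106, annotated antisense to exons of Abcb1b, was not analysed here, and its reads cannot be told apart from those of Abcb1b either.

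**Figure D2:**
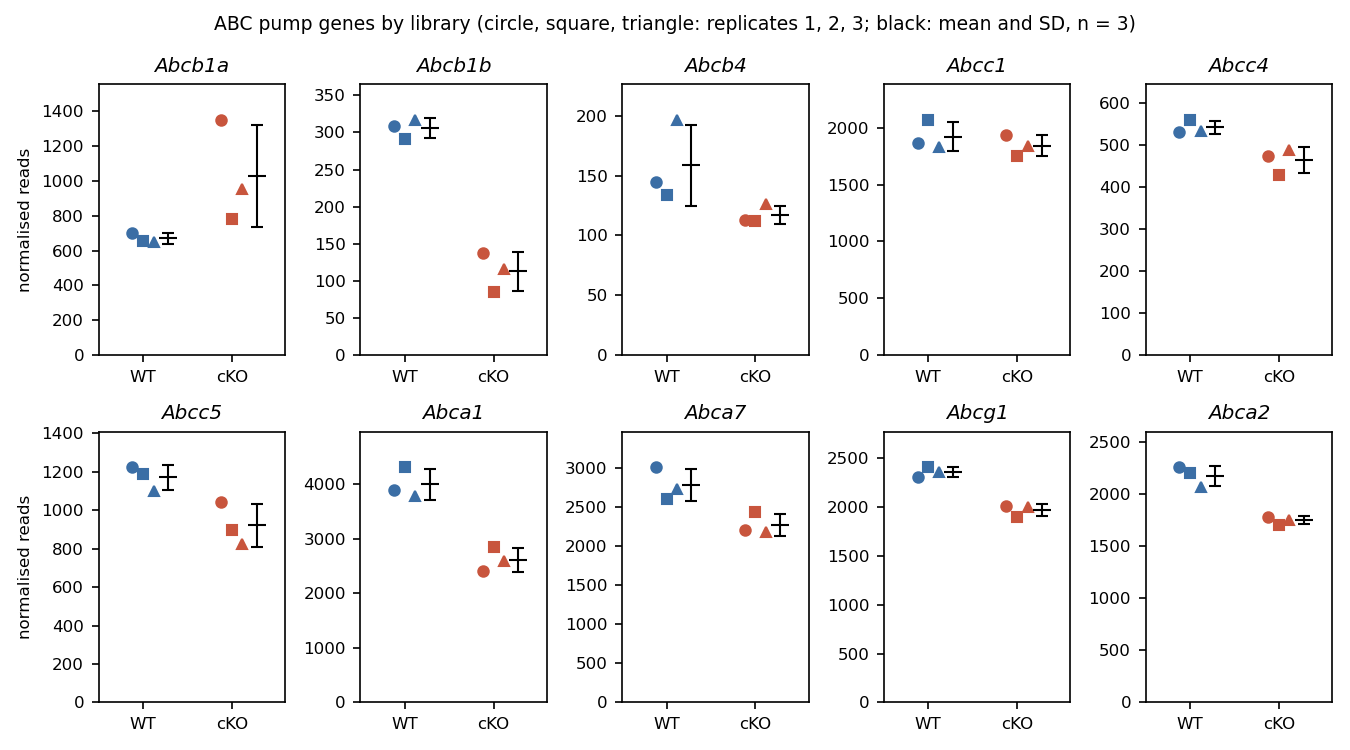
Normalised reads of the 10 pump genes in each library, with the mean and SD of each group (n = 3) in black; each axis starts at 0. Abcb1a is the gene that is higher in cKO, Abcc1 overlaps between the groups, and the 8 others are lower in every cKO library.

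The conjugate pumps differed less. Abcc1 (ENSMUSG00000023088), which exports glutathione conjugates and leukotriene C, stood at 1867, 2069.8 and 1829 normalised reads in WT and at 1934, 1752 and 1838 in cKO. The groups overlapped, and the log2 difference of -0.06 ± 0.07 had a 95% interval of -0.21 to 0.08 (limma, adjusted p = 0.597). Abcc4 (ENSMUSG00000032849), a pump for cyclic nucleotides and prostaglandins, stood at 530.4, 559.6 and 534 in WT and 474, 429 and 487 in cKO. Its groups did not overlap, yet the log2 difference of -0.23 ± 0.08 did not pass (adjusted p = 0.104).

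Abcc5 (ENSMUSG00000022822), a further exporter of cyclic nucleotides, stood at 1224, 1189.8 and 1098 normalised reads in WT and at 1043, 895 and 827 in cKO. Every cKO library was lower. It fell from 1171 ± 65.6 to 921 ± 111, a log2 difference of -0.35 ± 0.09 (limma, adjusted p = 0.0310). The call was lost without WT replicate 1 (0.12), 2 (0.0776) or 3 (0.065) and without cKO replicate 2 (0.051) or 3 (0.114), in a range of 0.00915 to 0.12.

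The lipid pumps were all lower in cKO, by different amounts. Abca1 (ENSMUSG00000015243), which loads cholesterol and phospholipid onto apolipoprotein acceptors, stood at 3879.5, 4308 and 3784 normalised reads in WT and at 2399.7, 2837 and 2589 in cKO. The lowest WT library was well above the highest cKO library. Abca1 fell from 3990.5 ± 279 to 2609 ± 219, a log2 difference of -0.61 ± 0.07 (limma, adjusted p = 0.000865), and it was called in every alternative (adjusted p up to 0.00677). Abca1 is also expressed by macrophages. Of the libraries with the highest macrophage sums, WT replicate 2 (3264) had the highest Abca1 value of its group and cKO replicate 1 (3091) the lowest, and the part of such cells in the result was not tested. Without the library of each group that was highest in erythroid and macrophage genes the log2 difference was -0.50.

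Abcg1 (ENSMUSG00000024030), which passes cholesterol to mature lipoproteins, stood at 2304, 2406 and 2352 normalised reads in WT and at 2003, 1899 and 1999.8 in cKO. Both groups were tight and did not overlap. Abcg1 fell by 0.26 on the log2 scale (SE 0.05; limma, adjusted p = 0.0156), and missed the threshold without WT replicate 3 (0.0648) or cKO replicate 3 (0.0508), or when WT replicate 2 and cKO replicate 1 were both left out (0.0608), in a range of 0.00488 to 0.0648.

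Abca7 (ENSMUSG00000035722), a close relative of Abca1 linked to phagocytosis, stood at 3009.8, 2605 and 2727 reads in WT and at 2209.9, 2429 and 2174 in cKO. The highest cKO library came near the lowest WT library without reaching it. It fell by 0.29 on the log2 scale (SE 0.07; limma, adjusted p = 0.0247), and the call was lost without WT replicate 1 (0.0922) or 3 (0.0783) and without cKO replicate 1 (0.0609) or 3 (0.0969), in a range of 0.00527 to 0.0969. Abca2 (ENSMUSG00000026944), a lipid transporter of late endosomes and lysosomes, stood at 2263, 2205 and 2073 in WT and at 1786, 1710.5 and 1757 in cKO. The cKO libraries lay close together below the WT range. Abca2 fell by 0.32 on the log2 scale (SE 0.06; adjusted p = 0.00837) and was called in every alternative (adjusted p up to 0.0389).

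Of the 9 genes other than Abcb1b, 1 rose and 5 fell, while 3 did not pass, where 10.1% of all genes tested passed. Their median log2 difference was -0.29 against -0.00086 over all genes tested. Groups did not overlap for 8 of these 9, with cKO lower for 7, where 15.6% of all genes tested had every cKO library lower. Because the genes were brought together on this contrast, these counts describe them and support nothing further. The 6 that passed became 3 without WT replicate 1, 2 without WT replicate 3 and 2 without cKO replicate 3, and 4 without WT replicate 2 or without that library and cKO replicate 1 together. In bulk RNA a lower level per cell and fewer cells that express the gene cannot be told apart.

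**Figure D3:**
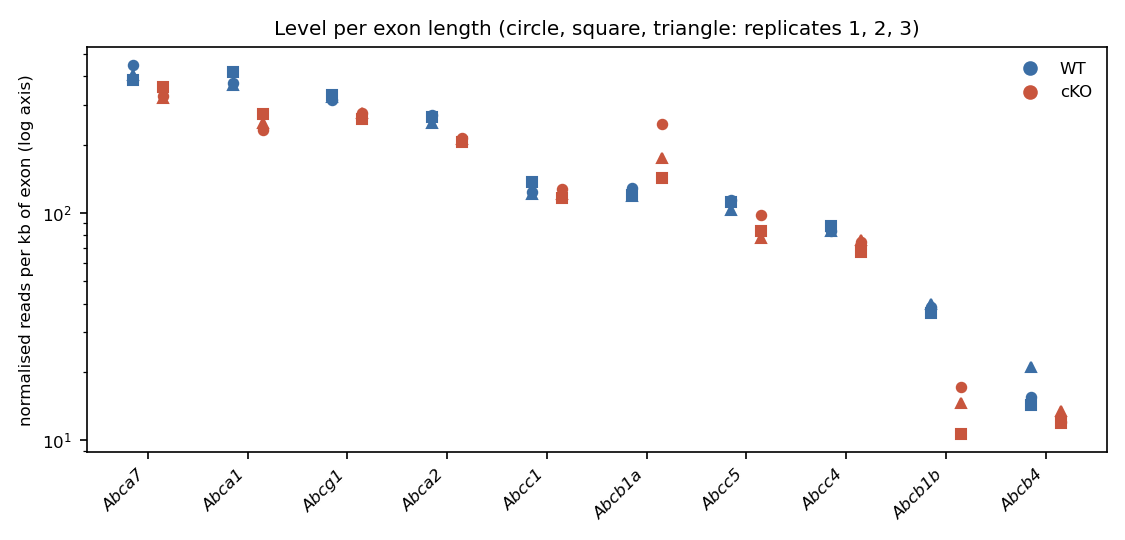
Normalised reads per kb of exon (log axis) of each pump gene in the 3 WT (blue) and 3 cKO (red) libraries, ordered by the WT mean. By this length the lipid pumps hold the upper places, and Abcb1b and Abcb4 the lowest.

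Levels of different genes were compared per kb of exon, with all annotated exons joined. In WT, Abca7 (412 ± 30.7 normalised reads per kb) and Abca1 (385 ± 27.0) came first, and their ranges overlapped. Abcg1 (323 ± 7.01) and Abca2 (261 ± 11.7) followed, each clear of its neighbours. Abcc1 (127 ± 8.58) and Abcb1a (122 ± 5.30) overlapped, then came Abcc5 (109.6 ± 6.14), Abcc4 (84.7 ± 2.49), Abcb1b (38.2 ± 1.67) and Abcb4 (16.9 ± 3.57), none overlapping the next (SD, n = 3 each). In cKO, Abca1 stood at 252 ± 21.2 per kb and Abcg1 at 269.6 ± 8.10, with overlapping ranges, and Abcb1b, at 14.2 ± 3.28, overlapped Abcb4 at 12.5 ± 0.826. The annotated exons include retained introns. The order depended on the length used. With the longest transcript, the mean of Abcg1 (404 ± 8.77 per kb in WT) was above that of Abca1 (389 ± 27.2), with overlapping ranges. The mean of Abcc1 (283 ± 19.1) was above that of Abca2 (271 ± 12.1), also with overlapping ranges. Abcc5 (201 ± 11.3) stood above Abcb1a (134 ± 5.81), while Abcb1b (70.9) and Abcb4 (38.9) stayed last. The plot of levels per kb shows the exon-based order.

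Of the other ABC genes few passed the test. Of 43 listed, 24 were measured, and 0 rose and 1 fell (limma; 3 higher and 2 lower at an unadjusted p under 0.05; 0 and 1 with edgeR, 1 and 1 with DESeq2), with a median log2 difference of -0.05. Groups did not overlap for 8 of the 24, with cKO higher for 6 and lower for 2. Over all genes tested 10.1% passed, and the groups did not overlap for 31.6% (cKO higher for 15.9%, lower for 15.6%). At an unadjusted p under 0.05 in limma, 2007 of all 14855 genes tested were higher and 1976 lower. The gene that fell was Abcd4, which encodes a lysosomal protein of vitamin B12 handling, from 543 ± 32.4 to 393 ± 13.1 reads (-0.46 ± 0.08, adjusted p = 0.00812). Abcd4 stood at 571, 551 and 508 in WT and 405, 379 and 396 in cKO, and was called in every alternative. Tap1 and Tap2, named here outside the rule for named genes, form the peptide pump of antigen presentation and gave log2 differences of -0.03 and -0.15. The breast cancer resistance pump gene Abcg2, also named outside the rule, was near the detection floor, at 8.80 to 27.4 reads over the 6 libraries.

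**Figure D4:**
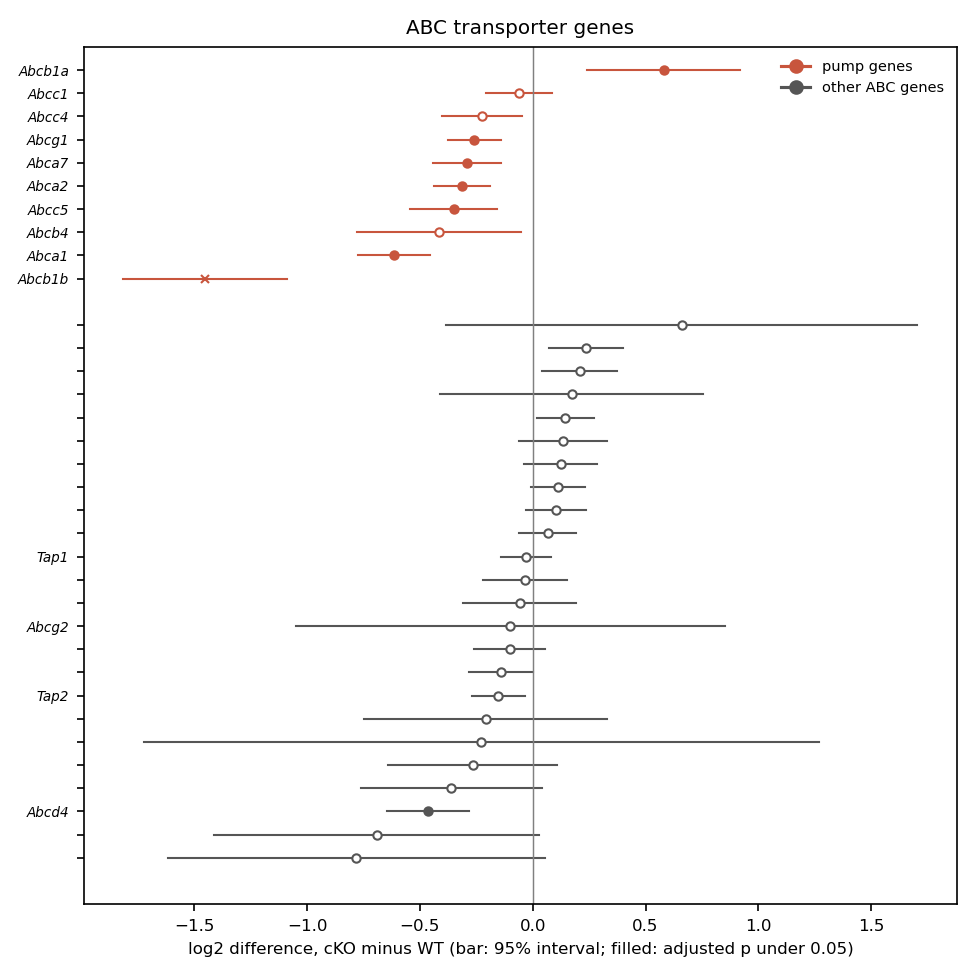
Log2 difference, cKO minus WT, of the 34 measured ABC transporter genes, each with its 95% interval. Filled points passed the threshold and open points did not. The interval of Abcb1b (cross) is drawn as well, but the genes were selected on its difference, so it is no test. The pump genes and the other ABC genes named in the text are labelled. The pump genes lie mostly below 0, and the other ABC genes lie on both sides of it.

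Genes of the LXR pathway and of sterol export were then read beside Abca1 and Abcg1, from a list that leaves out the pumps. Of 32 measured, 6 fell and 0 rose (limma; 10 lower and 4 higher at an unadjusted p under 0.05; 5 and 0 with edgeR, 6 and 1 with DESeq2), with a median log2 difference of -0.05. Apoe, the apolipoprotein that accepts lipid from these pumps, fell from 4627 ± 562 to 2528 ± 151 normalised reads (-0.87 ± 0.08, adjusted p = 0.000321). Its values were 4395, 5267 and 4219 in WT and 2702, 2454 and 2428 in cKO, and the highest, WT replicate 2, was also the library with the highest macrophage sum. Without that library and cKO replicate 1 the Apoe difference was -0.82.

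Smpdl3a, a phosphodiesterase gene induced by LXR, fell from 440.4 ± 19.2 to 267 ± 29.5 (-0.72 ± 0.10, limma adjusted p = 0.00279). Its values were 418, 449 and 454 in WT and 249, 301 and 252 in cKO, far apart between the groups. Scarb1, a receptor for high-density lipoprotein, fell by 0.45 on the log2 scale (SE 0.11, adjusted p = 0.0247; lost without WT replicate 2 at 0.063, WT replicate 3 at 0.104, cKO replicate 1 at 0.0615 and cKO replicate 3 at 0.0734 and WT replicate 2 with cKO replicate 1 at 0.109, in a range of 0.0168 to 0.109). Also called, and named outside the rule, were Mylip, which encodes a ubiquitin ligase (-0.44 ± 0.11, limma adjusted p = 0.0310), and Srebf1, a lipogenic transcription factor (-0.21 ± 0.06, adjusted p = 0.0465). The LXR genes themselves, also named outside the rule, did not pass. Nr1h2 stood at 2656 to 2806 reads in WT and 2662 to 2751 in cKO, and Nr1h3 was low throughout, at 27.5 to 49.4. The count of 6 became 3 without WT replicate 1, WT replicate 3, cKO replicate 1 or cKO replicate 3. Over all genes tested 4.97% fell. At an unadjusted p under 0.05 in limma, 1976 of all 14855 genes tested were lower and 2007 higher.

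Sterol synthesis genes, which the transcription factor SREBP2 drives when membrane cholesterol is low, were lower in part. Of 24 measured, 7 fell and 0 rose (limma; 12 lower and 0 higher at an unadjusted p under 0.05; 7 and 0 with edgeR, 7 and 0 with DESeq2), with a median log2 difference of -0.20. Sqle, the squalene epoxidase gene, fell from 299 ± 18.7 to 178 ± 24.9 reads (-0.75 ± 0.12, adjusted p = 0.00589). Lss, the lanosterol synthase gene, fell from 454 ± 31.9 to 312 ± 15.8 (-0.54 ± 0.09, adjusted p = 0.00678). Cyp51, the demethylase that follows it, gave -0.54 ± 0.12 (adjusted p = 0.0217, lost without WT replicate 1 at 0.0954, WT replicate 3 at 0.0807, cKO replicate 1 at 0.0532 and cKO replicate 3 at 0.0815, in a range of 0.00134 to 0.0954). The count of 7 became 3 without WT replicate 1, WT replicate 3, cKO replicate 1 or cKO replicate 3. Over all genes tested 4.97% fell, and 1976 of 14855 were lower at an unadjusted p under 0.05 in limma (2007 higher). Whether the lipid pumps and the sterol synthesis genes move together was not tested.

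Factors known to act on the Abcb1 promoters in rodents or humans were read from a list of 25 genes. Of 24 measured, 3 fell and 1 rose, with a median log2 difference of -0.03, where 10.1% of all genes tested passed. Jun and Fos, the subunits of AP-1 that are also induced by handling of tissue, fell by 0.84 (SE 0.13, limma adjusted p = 0.00402) and 0.67 (SE 0.10, adjusted p = 0.0044) on the log2 scale. Jun stood at 15955, 12531 and 15371 reads in WT and 9686, 6588 and 8427 in cKO, without overlap. Whether any of these factors bears on the level of Abcb1a or Abcb1b was not tested. Foxo1, a quiescence factor of lymphocytes, fell by 0.32 (SE 0.07, adjusted p = 0.0172; lost without WT replicate 3 at 0.0783, cKO replicate 3 at 0.0727 and WT replicate 2 with cKO replicate 1 at 0.0812). Cebpb rose from 672 ± 51.1 to 967 ± 72.7 (0.53 ± 0.08, adjusted p = 0.00429).

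The genes whose pattern came nearest to that of Abcb1b were found by the Euclidean distance between centred log2 values over the 6 libraries, among the 10190 genes whose mean reached 100. Inpp4b, a phosphoinositide phosphatase gene, was nearest at a distance of 0.404, with means of 1370.0 in WT and 574 in cKO. Next came the semaphorin gene Sema5a (0.524), the AP-1 subunit gene Fosb (0.567), the transcription factor gene Klf4 (0.601) and the prostaglandin E receptor gene Ptger4 (0.608). All 5 were lower in cKO, with log2 differences from -1.26 to -1.09, which the measure itself requires.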

How the data were processed

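RNA of flow-sorted marginal zone B cells was sequenced as 3 WT and 3 cKO libraries, grouped by their titles. Per the submitters' processing notes the authors used bcl2fastq 2.17, Trimmomatic 0.36 and STAR 2.5.2b with build mm9. No source used here names the tools for counting and normalization, the annotation or the strand setting. Each deposited signal value equals a whole number of reads divided by a factor of its library: 100% of values were whole within 0.02 of a read, 1 read being worth 0.891 to 1.10. The lowest total of any gene was 61 reads. In cKO replicate 1 no value of a single read occurs.

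Limma 3.58.1 in R 4.3.3 (lmFit, eBayes with a trend, two-sided) was run on log2(value + 1) for the 14855 genes with a mean of at least 10. Adjusted p values are Benjamini-Hochberg over these genes. Each log2 difference subtracts WT from cKO on that log scale, so changes of low genes come out too small, and its ± is an SE. EdgeR 4.0.16 and DESeq2 1.42.0 on recovered reads, a pseudocount of 10, no filter, rescaling without immunoglobulin genes, a replicate block and leaving out libraries were alternatives. The fit was tested on simulated data. Symbols and lengths came from GENCODE M21, which named 14808 identifiers.

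The genes and lists were chosen with earlier results of these data known. Named genes were the 10 pumps, Csnk2a1, every other ABC gene called, up to 4 called genes of each list by smallest adjusted p, 3 protein-coding neighbours on each side of the Abcb1 cluster, and the 5 genes nearest to Abcb1b. Gm42686 was added for its overlap. Some genes that the rule names are not reported here.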

Additional observations from a re-analysis of the deposited data

How the results depend on the processing

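Of the 9 pump genes other than Abcb1b 6 passed, 5 with DESeq2, 4 without WT replicate 2 and cKO replicate 1 together (a choice made after seeing the data), and 2 to 5 over the fits that each left out 1 library. Abcb1b, for whose lower level the genes were selected, is left out of these counts. Over those 6 fits the calls among all genes ran from 497 to 1730 against 1494 (876 without both libraries), among other ABC genes from 1 to 2, in the LXR list from 3 to 7 (3 without both libraries), in sterol synthesis from 3 to 8, in the glutathione list from 1 to 4 and in the eicosanoid list from 0 to 4 (1 without both libraries). DESeq2 called 2 other ABC genes, and edgeR, DESeq2 and the replicate block each called 1 scaffold gene where limma called 0. Of the neighbours, Slc25a40 ran from -0.038 to 0.0084 when 1 library was left out and reached 0.017 without both libraries. Dbf4 ran from -0.10 to 0.056 when 1 library was left out, and Tmem243 to -0.0016 when rescaled and -0.017 without cKO replicate 2. The other named genes kept their direction in every alternative, which for groups that do not overlap is all but fixed when libraries are left out. Fits that leave out libraries also rest on fewer of them, and the causes of the changes in calls were not tested.

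Whether the shared replicate numbers pair the libraries could not be settled with 3 libraries per group. Same-numbered libraries had correlations of their deviations of -0.075, -0.020 and 0.15, against -0.21 to 0.20 for libraries of different numbers. With the replicate block 1551 genes were called. Of the named genes, Adcy9 lost its call there (adjusted p = 0.0693). Depth limits what can be said of low genes such as Abcg2.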

Other observations

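Genes that supply or handle the substrates of the conjugate pumps went both ways. Of 26 measured genes of glutathione handling and the NRF2 response, 3 rose and 2 fell (limma), with a median log2 difference of 0.10. Over all genes tested 5.08% rose and 4.97% fell. The glutathione transferase gene Gstt2 rose from 396 ± 18.4 to 564 ± 35.7 normalised reads (0.51 ± 0.08, adjusted p = 0.00566) and was called in every alternative. The low transferase gene Gstt3 rose from 15.2 ± 4.01 to 37.3 ± 8.00 (adjusted p = 0.0280) and Gstm1 fell from 69.3 ± 12.4 to 30.2 ± 11.6 (adjusted p = 0.0274), while Gss, the glutathione synthetase gene, fell from 235 ± 6.61 to 170.3 ± 6.81 (adjusted p = 0.0245). Gstt3, Gstm1 and Gss lost their calls without WT replicate 1 (0.0987, 0.0904 and 0.0705), WT replicate 3 (0.0799, 0.113 and 0.0956) or cKO replicate 3 (0.116, 0.0659 and 0.0734). Gstt3 also lost it without cKO replicate 2 (0.0515), Gstm1 without cKO replicate 1 (0.0534) and Gss without WT replicate 2 (0.0566). Without WT replicate 2 and cKO replicate 1 together the calls of Gstm1 (0.0536) and Gss (0.0716) were lost.

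Of 26 measured genes for eicosanoids, sphingosine phosphate and cyclic nucleotides, which Abcc1, Abcc4 and Abcc5 export, 2 rose and 1 fell (limma). Over all genes tested 10.1% passed. Alox5ap, which presents arachidonic acid to 5-lipoxygenase, rose from 107 ± 6.49 to 190.2 ± 46.9 reads (0.79 ± 0.17, adjusted p = 0.0194). Its values were 99.9, 112 and 111 in WT and 244, 160.1 and 166 in cKO, so cKO replicate 1 stood apart, as for Abcb1a. The adenylyl cyclase gene Adcy9 rose by 0.62 (SE 0.18, adjusted p = 0.0481) and the phosphodiesterase gene Pde7a fell by 0.44 on the log2 scale (SE 0.09, adjusted p = 0.0113). The 3 calls were lost without WT replicate 1 (0.0767 for Alox5ap, 0.136 for Adcy9 and 0.0509 for Pde7a) or WT replicate 3 (0.0639, 0.0623 and 0.0566). Adcy9 lost its call in each fit that left out a library (adjusted p up to 0.136), with DESeq2 (0.0575), when rescaled without immunoglobulin genes (0.0523) and with the replicate block (0.0693). Without WT replicate 2 and cKO replicate 1 together the calls of Adcy9 (0.208) and Alox5ap (0.0567) were lost. Of 8 scaffold genes of the membrane, such as the ezrin gene Ezr, 0 passed in limma, 1 was higher and 1 lower at an unadjusted p under 0.05, and edgeR and DESeq2 called 1 each. At that unadjusted p in limma, 2007 of all 14855 genes tested were higher and 1976 lower.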
